A study of Mus musculus with 2 samples.

Results

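The clustered core histone genes make up the bulk of the histone proteins that package newly copied DNA. Here they are the rows of the deposited gene table whose symbol is H2ac, H2bc, H3c or H4c followed by a number only. That rule gave 59 of 56694 genes, of which 18 were H2ac genes (histone H2A), 17 H2bc (H2B), 12 H3c (H3) and 12 H4c (H4). The members were chosen by symbol, but the group was proposed from the summed level per cell class and its relation to Mki67, Top2a and Pcna in these same libraries, so those values are given as a description and support no test. Back skin epidermis was taken at P2 (day 2) from control mice and from Gli2EKO mice, and 1 single-cell 3′ library was made per genotype. Gli2EKO mice were K14Cretg;Gli2fl/fl, in which the keratin 14 promoter drives Cre in keratinocytes, so that melanocytes and dermal cells are not targeted. The control library is labelled WT, and the methods of the study describe controls as floxed littermates without Cre, all on a C57Bl/6N background. How many mice went into a library is not given in the sources used here, and the deleted part of Gli2 is not given either, so Gli2 counts were not used to check the labels.

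The control library held 6326 cell barcodes and 71021773 UMIs (unique molecular identifiers, each counted once per captured transcript), and the Gli2EKO library 4296 barcodes and 48866478 UMIs, with 0 barcodes in common. After the study's limits on genes and mitochondrial reads and the removal of likely doublets, 4456 control and 3093 Gli2EKO cells remained, with medians of 11828 and 11936 UMIs. Of these, 3320 control and 2306 Gli2EKO cells were keratinocytes and 861 and 652 were fibroblasts or dermal papilla cells by their marker genes. Because each genotype is 1 library, no difference between genotypes could be tested. Every interval below is a 95% interval that covers counting error only, not the spread between mice. Levels are depth-scaled counts (CPM), the UMIs of a gene relative to all UMIs of the same cells on the usual CPM scale. A UMI of this assay stands for 1 captured 3′ end, so levels were not divided by gene length.

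A core histone octamer is built from H2A, H2B, H3 and H4, and a cell that copies its genome must make a new set of all of them. The clustered genes are expressed mainly in S phase, and their mRNAs are unusual in ending in a conserved stem-loop in place of a poly(A) tail. The stem-loop is bound by SLBP, which carries the mRNA through processing, export, translation and decay at the end of S phase. Some of these genes also give polyadenylated transcripts, which are known from differentiated and resting cells. The libraries were primed on poly(A), so the UMIs of these genes count whatever of their mRNA carried a tail or an internal stretch of A. Which of the forms a UMI came from was not tested.

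The stem-loop was looked for in the genome (GRCm39, GENCODE M39 gene models) within 100 bases after each stop codon, as GG, a matched stem, a loop of 4 bases that starts with TT, and the stem's complement ending in CC. It was found in 54 of the 59 members and in 28 of 21699 other coding genes, or 0.129%, of which 13 were histone genes by symbol. The members searched without a match were H2ac22, H2bc21, H3c8 and H4c1. H2ac14 is annotated as a pseudogene with no coding sequence, so it had no stop codon to search from. The commonest form, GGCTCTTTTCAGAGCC, was found in 34 members, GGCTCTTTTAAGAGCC in 8 and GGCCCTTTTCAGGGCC in 7. The windows of 7 members on which the results below turn are given here with the stem-loop in capitals, 5′ to 3′ on the gene's own strand, so that the members that behaved differently can be compared with those that did not.
H4c4, chr13:23765928-23765957, plus strand: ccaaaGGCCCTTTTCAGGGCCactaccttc
H2ac8, chr13:23754833-23754862, minus strand: acaaaGGCTCTTTTCAGAGCCattcactta
H2ac24, chr13:22017190-22017219, minus strand: aaaaaGGCTCTTTTCAGAGCCatccacagt
H3c3, chr13:23929021-23929050, minus strand: aaaaaGGCTCTTTTAAGAGCCacctaagat
H2ac20, chr3:96127725-96127754, minus strand: aaaaaGGCTCTTTTTAGAGCCaccaaatct
H4c9, chr13:22225127-22225156, minus strand: ttaaaGGCCCTTTTTAGGGCCaccacaaaa
H2bc4, chr13:23868625-23868654, plus strand: ccaaaGGCTCTTTTCAGAGCCacccacttt
H2bc4, which departs from the other abundant members in the results below, holds the same stem-loop letters as H2ac8 and H2ac24, 35 bases after its stop codon. Among the members printed here, H2bc4 had the longest annotated 3′ end. Its annotated transcripts reach up to 8296 bases past the stop codon, measured along the genome with any introns included. They have up to 2 exons. A poly(A) signal lies in the last 50 bases of some transcript of H2bc4, as it does for H2ac8 and H4c9. The annotated 3′ end was 822 bases in H4c4, 199 in H2ac8, 57 in H2ac24, 114 in H3c3, 94 in H2ac20 and 376 in H4c9. In all, 10 members had a 3′ end over 1000 bases by this genomic distance. Among them H2bc24 (3379 bases) and H2bc6 (2964 bases) also had the stem-loop and a poly(A) signal, so these traits were not particular to H2bc4. A poly(A) signal was in the last 50 bases of some transcript of 15 members, and 12 gene models stopped at the stop codon.

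The members lie in 3 blocks. On chromosome 13, 23 members stand between positions 21899933 and 22227846 and 26 between 23715220 and 24118834, and on chromosome 3, 10 stand between 96127181 and 96177448. The second block of chromosome 13 gave 70.3% of the member UMIs of keratinocytes, the first block 21.6% and chromosome 3 8.10%. Many members are arranged head to head: 15 pairs had start sites on opposite strands within 1000 bases, and 13 of the pairs joined an H2ac and an H2bc gene. Neighbours that share such a start region had like counts in some pairs and unlike counts in others. H2ac12 gave 126 UMIs and H2bc12, 302 bases away, 144, and H2ac15 gave 718 and H2bc15, 296 bases away, 439. H2ac8 gave 8027 UMIs and H2bc8, 176 bases away, 434. H2ac24 gave 6126 and H2bc24, 234 bases away, 314. H2ac6 gave 661, and H2bc4, whose annotated start overlaps that of H2ac6, 9830.

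Promoter windows of RefSeq (GRCm38.p6) matched 52 of the 59 members. The 3 short motifs below were searched on both strands: TATAAA (the TATA box), CCAAT, and ATTTGCAT (the octamer known from H2B promoters). CCAAT was in 84.6% of member windows and 41.0% of the 26973 windows of all other genes, TATAAA in 57.7% and 15.6%, and ATTTGCAT in 13 of the 52 and 1.92%. The families differed: CCAAT was in 100% of H2ac, H2bc and H3c windows and 27.3% of H4c windows, and ATTTGCAT in 7 of 14 H2bc, 6 of 17 H2ac, 0 of 10 H3c and 0 of 11 H4c windows. Windows of head-to-head H2ac and H2bc neighbours can overlap, so a match can be counted for both genes. Which gene of a pair a match belongs to was not tested. The windows of the most abundant member with an entry in each family show these arrangements, with every match to the motifs in capitals. A match is a description of letters and not a shown binding site, and the H2bc4 window is not in the table used.
H4c4, chr13:23581318-23581617, plus strand: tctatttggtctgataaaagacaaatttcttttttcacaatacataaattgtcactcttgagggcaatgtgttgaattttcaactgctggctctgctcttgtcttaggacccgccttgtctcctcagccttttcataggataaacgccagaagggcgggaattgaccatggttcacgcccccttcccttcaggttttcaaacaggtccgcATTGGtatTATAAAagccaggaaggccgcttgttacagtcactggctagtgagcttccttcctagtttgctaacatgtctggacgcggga
H2ac8, chr13:23571171-23571470, minus strand: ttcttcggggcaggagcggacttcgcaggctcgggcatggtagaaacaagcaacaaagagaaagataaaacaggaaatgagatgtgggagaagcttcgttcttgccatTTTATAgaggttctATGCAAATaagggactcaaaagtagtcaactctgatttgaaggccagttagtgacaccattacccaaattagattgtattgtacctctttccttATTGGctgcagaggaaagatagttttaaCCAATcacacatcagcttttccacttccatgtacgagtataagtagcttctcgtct
H2bc18, chr3:96269450-96269749, plus strand: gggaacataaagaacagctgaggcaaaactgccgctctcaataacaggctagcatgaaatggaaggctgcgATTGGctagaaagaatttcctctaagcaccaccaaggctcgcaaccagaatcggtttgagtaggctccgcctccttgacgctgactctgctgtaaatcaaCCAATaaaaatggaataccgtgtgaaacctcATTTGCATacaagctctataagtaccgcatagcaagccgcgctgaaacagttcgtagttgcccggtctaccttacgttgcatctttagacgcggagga
H3c3, chr13:23745472-23745771, minus strand: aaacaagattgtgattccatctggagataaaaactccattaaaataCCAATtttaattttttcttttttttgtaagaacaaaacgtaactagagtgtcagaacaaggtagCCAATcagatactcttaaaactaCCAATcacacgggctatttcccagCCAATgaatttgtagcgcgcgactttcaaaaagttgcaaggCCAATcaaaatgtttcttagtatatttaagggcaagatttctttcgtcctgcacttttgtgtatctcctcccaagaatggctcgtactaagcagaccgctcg
The H4c4 window holds the TATA box just after a CCAAT match on the other strand (ATTGG). The H2ac8 window holds a TATA box match and an octamer match on the strand opposite to the gene. That is the strand of its neighbour H2bc8, and the matches lie on the side of H2bc8. H3c3 has CCAAT repeated 5 times on its own strand and neither of the other motifs.

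In keratinocytes 50 of the 59 members had at least 50 UMIs over both libraries, 4 had fewer (H3c10 35, H2ac23 15, H2ac14 8 and H2ac1 2) and 5 had none (H2ac19, H2bc1, H2bc23, H3c14 and H4c17). The members are near copies of each other, and the sequence counted can be shared: 49 of them shared at least 1 stretch of 90 bases in their last 500 with another gene, and 28 shared more than 50% of such stretches. The stretches of H2ac19, H2bc23 and H3c14, all at 0 UMIs, were shared in full, and so were those of H2ac18, which gave 581 UMIs. Reads that map to several genes are not counted by Cell Ranger, so how much of a member was counted differs between members. Levels of H4c4, H2bc4, H4c9 and H2ac20, with at most 13.1% of such stretches shared, rest on more of their own sequence than those of H2ac24, with 92.4%. Where members overlap on opposite strands (H4c4 and H2bc6, H2bc4 and H2ac6, H3c3 and H2bc3), their reads are separated only by strand.

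The counts were very uneven. The members gave 63869 UMIs in keratinocytes, of which the leading 6 held 65.6%, the leading 10 74.7% and the leading 20 88.0%. H4c4, an H4 gene, was the most abundant, with 152 CPM in control and 128 in Gli2EKO keratinocytes. H2bc4, an H2B gene, followed with 101 and 155 CPM, and was the highest of all members in Gli2EKO. The H2A gene H2ac8 gave 102 and 100.3 CPM and the H2A gene H2ac24 84.3 and 67.1. The H3 gene H3c3 gave 54.9 and 40.3 CPM, and the H2A gene H2ac20 37.5 and 30.8. H2ac4 gave 18.5 and 24.4 CPM, H4c9 15.5 and 23.1, H3c6 20.2 and 15.8, H2bc18 17.7 and 12.7, and H4c8 15.2 and 11.7. The 30 members that rank below the leading 20 but had at least 50 UMIs ranged from 0.651 to 7.87 CPM in control and from 0.569 to 6.53 in Gli2EKO.

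Summed over all members, keratinocytes held 821 CPM in control (95% interval 813 to 830) and 779 in Gli2EKO (769 to 788). By family, the counted UMIs of control keratinocytes were 297 CPM for H2A genes, 193 for H2B, 118 for H3 and 214 for H4. Those of Gli2EKO keratinocytes were 270.1, 228, 92.8 and 188. H2B was thus the only family with a higher sum in Gli2EKO, and without H2bc4 its sum was 91.4 CPM in control and 73.4 in Gli2EKO. The classes of keratinocyte, named "-like" from their marker genes after clustering without the members, the other histones and the cell cycle genes, differed far more than the libraries did. In control the sum was 996 CPM in cells like interfollicular epidermis (IFE) basal cells, 989 in those like outer root sheath (HF1 ORS), 984 in upper follicle (HF2), 940.3 in hair matrix or progenitor, 922 in companion layer and 844 in inner root sheath (IRS). It was 259 CPM in IFE suprabasal-like cells and 313 in sebaceous gland (SG)-like cells. In Gli2EKO the same classes held 1004, 1017, 946, 932, 646, 694, 286 and 432 CPM. One of the IFE basal-like clusters was led by stress genes (Atf3, Fosl1 and Serpinb2). The 10 leading genes of another were H19, Limch1, Sox6, the members H3c3 and H2ac8, H1f1, Wnt16, H1f5, Nusap1 and Prc1. H1f1, H1f5 and Nusap1 had been left out of the clustering with the members, and Prc1 was not on the lists left out. Both clusters are counted in the IFE basal-like class. The unnamed cluster 6, led by the hair shaft genes S100a3 and Krt35, held 556 and 808 CPM, and cluster 9, led by Tagln and Acta2, 519 and 505 CPM.

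**Figure D1:**
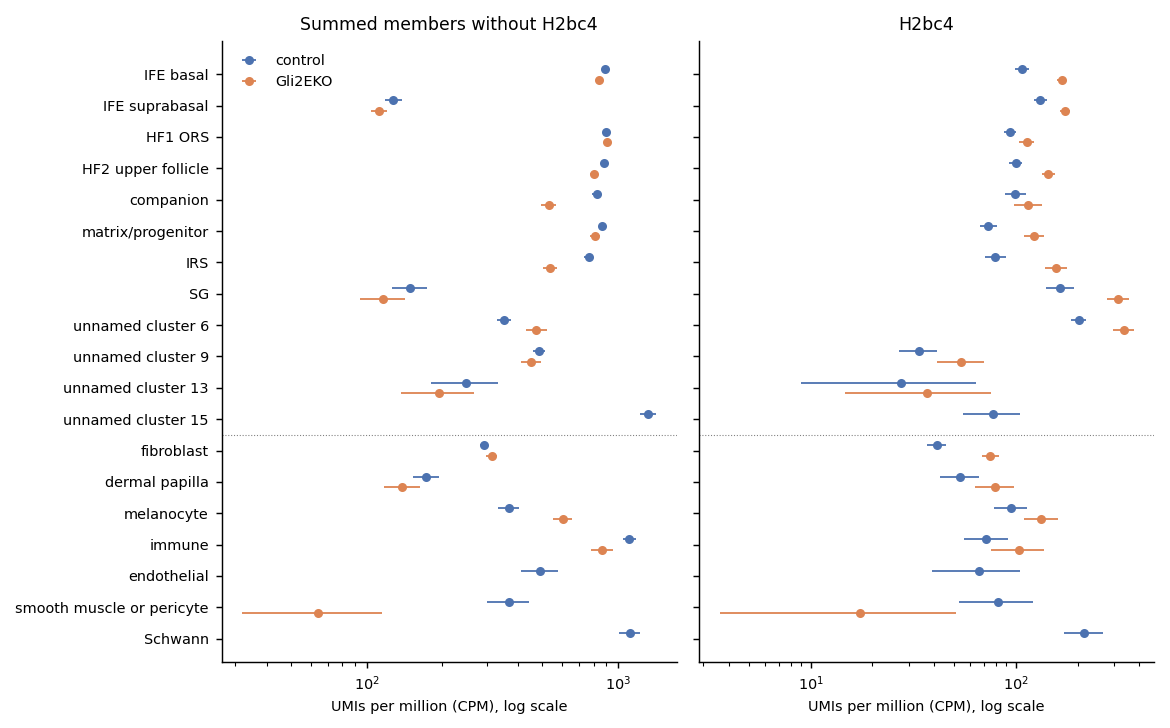
Level in CPM (log axes) of the 58 members other than H2bc4, summed (left), and of H2bc4 (right), in each cell class with at least 20 cells, in control (blue) and Gli2EKO (orange), with 95% counting intervals. Keratinocyte classes stand above the dotted line and other cells below it. The summed members fall to 127 and 112 CPM in IFE suprabasal-like cells, while H2bc4 is at 132 and 174 CPM there.

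H2bc4 took a different order of classes from the rest. In control it was lowest in unnamed cluster 13 (27.6 CPM, a cluster of few UMIs per cell) and cluster 9 (33.7), then in matrix-like cells (73.4), cluster 15 (77.0) and IRS-like cells (79.5), and highest among keratinocytes in unnamed cluster 6 (202), SG-like (164) and IFE suprabasal-like cells (132). The other 58 members summed to 149 CPM in SG-like cells of control and 116 in those of Gli2EKO, where H2bc4 alone gave 317 CPM, more than all others together. Across 35 profiles, each a class in 1 library, the log2 level of H2bc4 followed that of the other members with a Pearson r of 0.20, each member being set against all the others. Of the members with enough UMIs for this measure only H2bc21 was lower (0.18), H2bc13 (0.49) and H2ac6 (0.52) came next, and the highest was H2ac24 (0.91). These profiles share libraries, so r is a description.

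Mki67, which marks cycling cells, and Top2a, the DNA topoisomerase of late S phase and G2/M, were used to split the keratinocytes. After each cell was thinned to 5000 UMIs, cells with at least 1 UMI of either are called dividing here and the rest other, which leaves out cells with fewer than 5000 UMIs. Of 2992 control cells 1829 (61.1%, 95% Clopper-Pearson interval 59.4 to 62.9) were dividing, and of 2108 Gli2EKO cells 1047 (49.7%, 47.5 to 51.8). Dividing cells held 1173 CPM of members in control against 225 in other cells, a log2 ratio of 2.38 (2.33 to 2.43), and 1264 against 265 in Gli2EKO, a log2 ratio of 2.25 (2.20 to 2.30). Without H2bc4 the ratios were 3.29 and 3.53. Dividing cells held 90.2% of the member UMIs in control and 83.9% in Gli2EKO. They were also deeper, with medians of 14520 and 15082 UMIs against 11788 and 12110. Free RNA in the droplets can give a UMI of any of these genes in a cell that does not make it, and its part was not tested.

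Pcna, the clamp of the replication fork, is made from late G1 through S phase and split the cells less sharply. With at least 1 Pcna UMI the members stood at 1073 CPM in control and without it at 594 (log2 0.85), and at 1018 and 605 in Gli2EKO (log2 0.75). Among cells without Mki67 or Top2a the sum was not higher with Pcna, but H2bc4 and the other members differed there. Cells with none of the 3 genes held 230.2 CPM in control and those with Pcna alone 215, and the Gli2EKO values were 275 and 244. The 58 members other than H2bc4 stood at 102 CPM (95.8 to 108) with none and 130.3 (121 to 141) with Pcna alone in control, and at 97.1 (91.3 to 103) and 97.5 (89.0 to 107) in Gli2EKO. With Mki67 or Top2a but no Pcna the level was 943 CPM in control and 1074 in Gli2EKO, and with both 1329 and 1415. Within the cells with 8 or more Mki67 and Top2a UMIs, the level went from 1551 CPM without Pcna to 2175 with 1 or 2 Pcna UMIs and 2089 with 3 or more in control, and from 1654 to 2155 and 2707 in Gli2EKO. The members were thus highest where Pcna and high Mki67 and Top2a came together.

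Over Mki67 and Top2a most of the difference lay in the upper steps. In control the members held 225 CPM at 0 UMIs of the pair, 264 at 1, 399 at 2 to 3, 970.4 at 4 to 7 and 1899 at 8 or more. In Gli2EKO the series was 265, 356, 625, 1372 and 1983, above control at each step. Without H2bc4 the first step was lower in Gli2EKO, at 97.2 CPM against 111 in control. H2bc4 did not follow: it stood at 115, 118, 107, 101 and 77.0 CPM in control and at 168, 167, 180, 163 and 105 in Gli2EKO. Over Pcna the members went from 594 CPM at 0 to 1422 at 6 or more UMIs in control and from 605 to 1809 in Gli2EKO, on 35 and 20 cells at that last step.

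**Figure D2:**
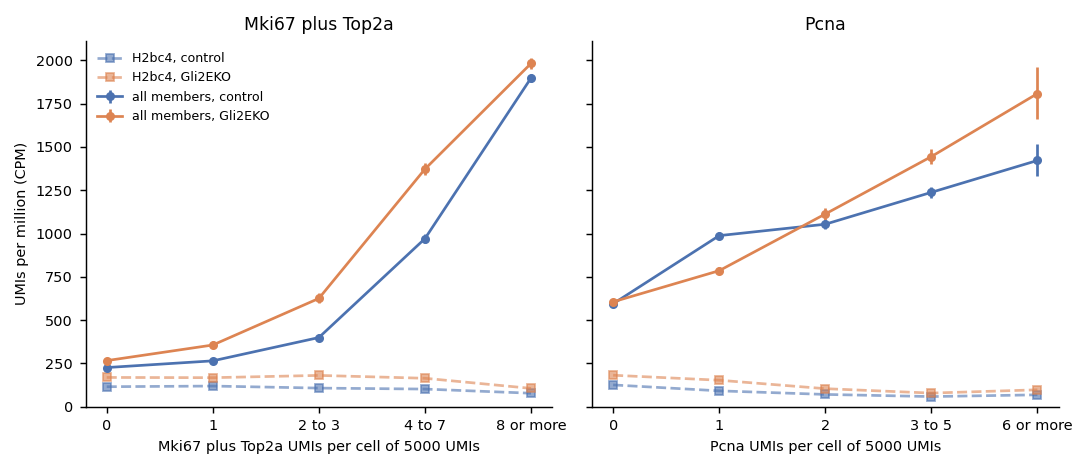
Level of all members (circles, solid) and of H2bc4 (squares, dashed) in CPM, in keratinocytes grouped by their UMIs of Mki67 plus Top2a (left) or of Pcna (right) after thinning to 5000 UMIs, with 95% counting intervals on the sums. The summed members reach 1899 and 1983 CPM at 8 or more Mki67 and Top2a UMIs, while H2bc4 ends lower than it began in both libraries.

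Single cells differed widely even among the dividing ones. Thinned to 5000 UMIs, 885 of 2992 control keratinocytes (29.6%) held no member UMI, and the median was 1, the 90th percentile 11 and the highest cell 47. In Gli2EKO 553 of 2108 (26.2%) held none, with a median of 2, a 90th percentile of 11 and a highest cell of 41. The 355 control cells with at least 10 member UMIs were 11.9% of cells but held 57.6% of the thinned member UMIs. Mki67 or Top2a was found in 98.6% of those cells and Pcna in 71.0%. In Gli2EKO 244 cells (11.6%) held 53.6%, with Mki67 or Top2a in 98.4% and Pcna in 66.4%. Of the dividing cells 19.1% in control and 22.9% in Gli2EKO reached 10 member UMIs, and 20.3% and 16.0% held none. Among the other cells 5 of 1163 and 4 of 1061 reached 10.

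**Figure D3:**
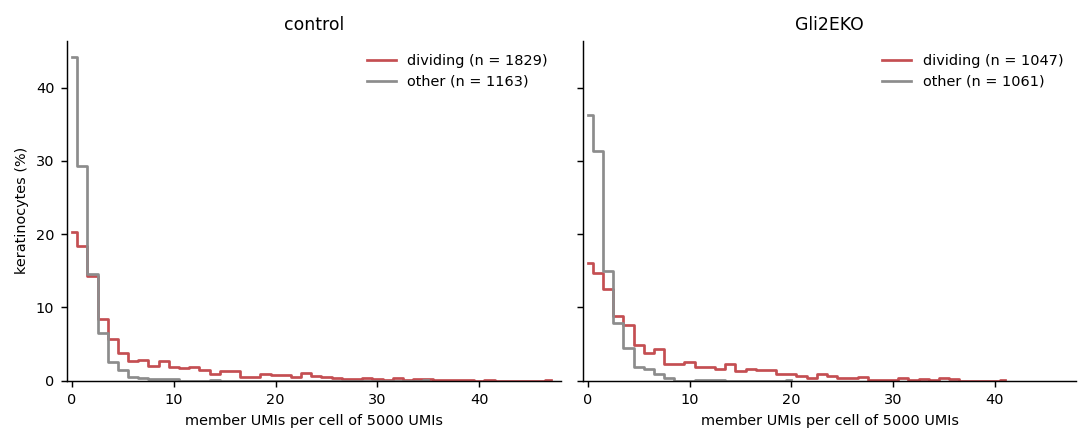
Share of keratinocytes (percent) with each number of member UMIs after thinning to 5000 UMIs, for dividing (red) and other cells (grey) of the control (left) and Gli2EKO library (right). Other cells fall off within a few UMIs, with 5 and 4 cells at 10 or more, while 350 and 240 dividing cells reach 10 or more.

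Taken one by one, 48 of the 50 members with at least 50 UMIs were higher in dividing than in other keratinocytes in each library. At least a 2-fold higher level was seen for 47 members in control, where 6.68% of all 15627 genes passed that mark, and for 48 in Gli2EKO, where 7.59% did. The median log2 ratio of the members was 3.17 and 3.20, against 0.03 and 0.08 over all genes. These counts rest on the contrast with which the group was proposed and are read no further. The 5 largest ratios of control were those of H2ac10 (log2 5.59), H3c2 (5.31), H2ac7 (5.09), H3c3 (4.93) and H2ac8 (4.57), and their Gli2EKO ratios were 4.92, 3.62, 3.21, 4.99 and 4.75. H3c2 and H2ac7 rest on 286 and 143 UMIs, and their intervals are wide. H3c3 stood at 85.6 CPM in dividing and 2.78 in other cells of control, and H2ac8 at 158 and 6.61. H4c4 stood at 226 CPM in dividing and 26.7 in other control cells (log2 3.08) and at 227 and 22.1 in Gli2EKO (3.36).

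The 5 smallest ratios of control were those of H3c15 (log2 -1.01, on 53 UMIs), H2bc4 (-0.28), H2bc21 (0.99), H4c14 (1.12) and H2ac21 (1.31), and those of Gli2EKO were -1.56, -0.22, 1.86, 1.89 and 2.53. Of these H3c15, H2bc21, H4c14 and H2ac21 lie in the block of chromosome 3, each with at most 201 UMIs. The H4 gene H4c9 was also low among the abundant members, with 20.1 CPM in dividing and 7.66 in other control cells (1.39). H2bc4 was the one abundant member that dividing cells did not hold more of, with 94.1 CPM in dividing and 115 in other cells of control and 145 and 168 in Gli2EKO. Its ratio was not the same in every class of control, being -0.72 in HF1 ORS-like, 0.18 (-0.05 to 0.41) in IFE basal-like and 0.58 in HF2-like cells. These values were not repeated in Gli2EKO, where they were 0.20, 0.04 and -0.12, all with intervals that span 0. The 8 members with an annotated 3′ end over 1000 bases and at least 50 UMIs had a median log2 ratio of 2.01 in control and 2.04 in Gli2EKO, and the other 42 members 3.37 and 3.32. The 3′ end groups overlap, with ranges from -0.28 to 4.34 and from -1.01 to 5.59 in control. By family the medians in control were 3.74 for H2ac, 2.89 for H2bc, 3.35 for H3c and 2.88 for H4c.

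**Figure D4:**
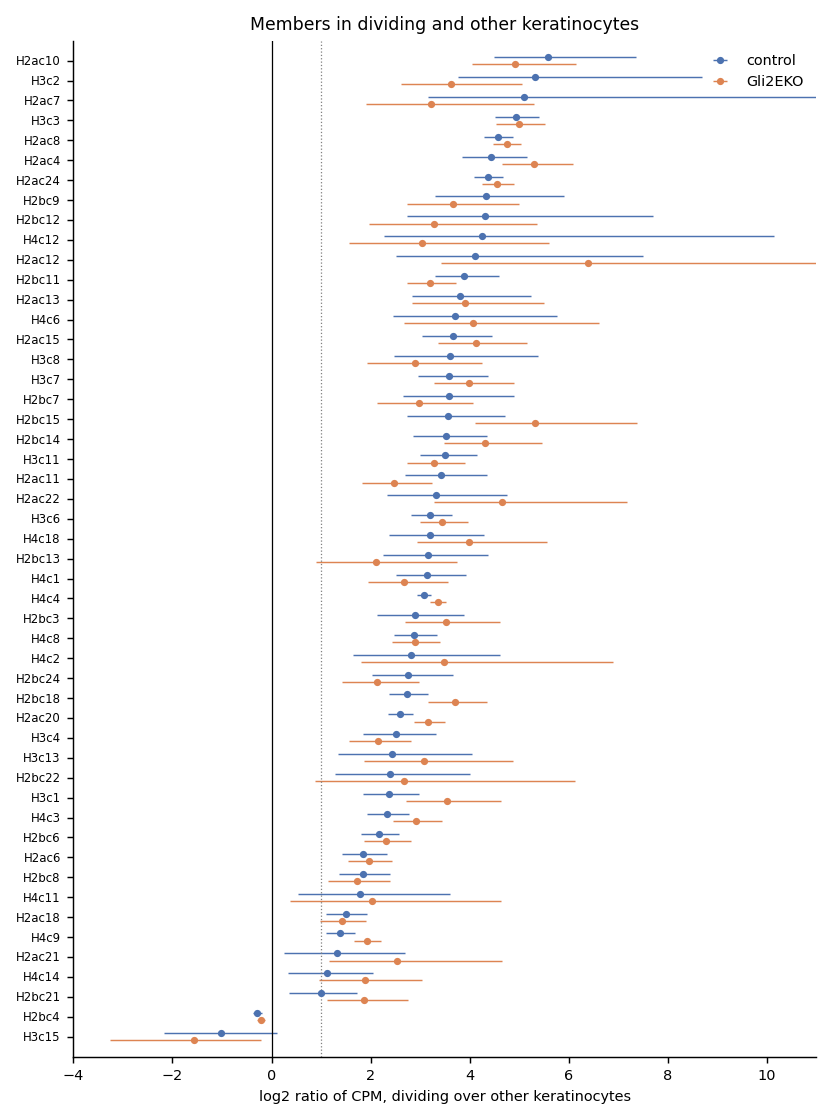
Log2 ratio of CPM in dividing over other keratinocytes for the 50 members with at least 50 UMIs, in control (blue) and Gli2EKO (orange), with 95% counting intervals and members in the order of control. The dotted line marks a log2 ratio of 1, and bars at the right edge run on beyond it. H2bc4 (-0.28 and -0.22) and H3c15 lie below 0 in both libraries, and 48 members lie above.

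Differentiating keratinocytes held less of nearly all members. IFE suprabasal-like cells held 259 CPM against 996 in IFE basal-like cells of control (log2 -1.94) and 286 against 1004 in Gli2EKO (-1.81), and without H2bc4 the ratios were -2.80 and -2.90. Of the 50 members 46 were at least 2-fold lower in control, where 21.2% of all genes were, and 46 in Gli2EKO, where 22.6% were. The medians were -2.44 and -2.69, against -0.24 and -0.28 over all genes. H4c4 went from 181 to 25.7 CPM in control and from 163 to 23.6 in Gli2EKO, H2ac8 from 125 to 10.3 and from 144 to 10.7, and H3c3 from 79.9 to 7.21 and from 63.1 to 5.34. H2bc4 went from 107 to 132 CPM in control (log2 0.30, 0.14 to 0.46) and from 167 to 174 in Gli2EKO (0.06, -0.05 to 0.17), so that it made up more than all other members together in suprabasal-like cells. The share of dividing cells was 49.7% in basal-like and 24.1% in suprabasal-like cells of control, and 43.6% and 18.5% in Gli2EKO. Within each class the other members were still higher in dividing cells, at 287 against 71.5 CPM in suprabasal-like cells and 1480 against 117 in basal-like cells of control.

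Fibroblasts, here with the dermal papilla-like cells, held 317 CPM of members in control and 362 in Gli2EKO, against 821 and 779 in keratinocytes (log2 -1.38 and -1.10). At least 2-fold lower levels were seen for 44 of the 50 members in control, against 20.9% of all genes, and for 32 in Gli2EKO, against 18.7%. The medians were -1.48 and -1.19, against -0.19 and -0.05 over all genes, and all 50 members were below 0 in both libraries. The lowest ratios of control were those of H2bc8 (log2 -2.93), H2bc15 (-2.60), H3c8 (-2.60), H3c13 (-2.57) and H4c12 (-2.19), all below 1 CPM in control fibroblasts. The ratios nearest 0 were those of H3c15 (-0.27), H2bc21 (-0.43), H4c14 (-0.74), H2ac21 (-0.85) and H2ac22 (-0.89). The fibroblasts divided less, with 31.1% dividing cells in control and 24.0% in Gli2EKO. Dividing fibroblasts held 720.0 and 932 CPM and other fibroblasts 123 and 136 (log2 2.55 and 2.78), each below the keratinocytes under the same cut. That cut did not match the cell types. Dividing fibroblasts of control held 483 CPM of Mki67 and 519 of Top2a, against 799 and 882 in dividing keratinocytes. In Gli2EKO the values were 535 and 605 against 559 and 779. H2bc4 was higher in dividing than other fibroblasts, at 51.4 against 39.8 CPM in control (log2 0.37, 0.08 to 0.66) and 117 against 59.1 in Gli2EKO (0.98, 0.72 to 1.24). Keratinocytes pooled over their classes showed the opposite order. Not every keratinocyte class did. In IFE basal-like cells the H2bc4 ratios were 0.18 (-0.05 to 0.41) in control and 0.04 (-0.11 to 0.19) in Gli2EKO.

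Other cells ranged as widely. Immune-like cells held 1182 CPM in control and 970 in Gli2EKO, with 64.8% and 53.1% dividing cells. Melanocyte-like cells held 462 and 736 CPM (log2 0.67, 0.50 to 0.84), with 30.5% and 36.7% dividing cells. The 29 Schwann-like cells of control held 1327 CPM, of which H2bc4 gave 214, the highest H2bc4 level of any control class, and Gli2EKO had only 3 such cells. Smooth muscle or pericyte-like cells were few, 26 and 20, and held 449 and 81.5 CPM on 137 and 14 UMIs.

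Between the genotypes the sum of members hardly moved in keratinocytes, while H2bc4 and the rest moved apart. The log2 ratio of Gli2EKO over control was -0.08 (-0.10 to -0.05) for all members, -0.21 (-0.23 to -0.18) for the 58 others and 0.62 (0.56 to 0.67) for H2bc4. Of the 50 members 39 were lower and 11 higher in Gli2EKO, with 20 intervals below 0 and 3 above (H2bc4, H4c9 and H2ac4). The median was -0.27, against -0.14 over all 15629 genes. How many of those genes were lower in Gli2EKO, or had intervals below or above 0, was not counted. The counts of members by direction and by interval are therefore read no further. At least 1.5-fold lower were 5 members (H2bc13, H2bc22, H4c1, H4c2 and H2bc8), where 9.76% of all genes were, and 1 was at least 1.5-fold higher (H2bc4), where 4.28% of all genes were, so the members' share past the mark was close to that of other genes. Their values are small: H2bc13 gave 3.47 CPM in control and 1.11 in Gli2EKO (log2 -1.63, on 160 and 37 UMIs), H2bc22 1.43 and 0.569 (-1.30), H4c1 7.11 and 3.95 (-0.84), H4c2 1.65 and 1.02 (-0.68) and H2bc8 6.46 and 4.07 (-0.66). Of the leading members, H3c3 stood at -0.45, H2ac24 at -0.33, H2ac20 at -0.29, H4c4 at -0.25 and H2ac8 at -0.02. After H2bc4 the highest were H4c9 (0.57), H2ac4 (0.40), H2bc15 (0.24) and H3c13 (0.19).

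The share of dividing cells moved with these values, being 61.1% in control and 49.7% in Gli2EKO keratinocytes. Mki67 stood at 522 and 302 CPM, Top2a at 565 and 410 and Pcna at 199 and 168. Within dividing cells the member sum was higher in Gli2EKO, 1264 against 1173 CPM, and within other cells also, 265 against 225, although over all cells it was lower. Without H2bc4 the sum was 1119 against 1079 CPM in dividing cells, but in other cells it was lower in Gli2EKO, 97.2 (92.4 to 102) against 111 (106 to 116). With the Gli2EKO cells weighted to the control shares of dividing and other cells, the log2 ratio was 0.12. The dividing cells of the libraries were not alike, with Mki67 at 799 CPM in control and 559 in Gli2EKO and Top2a at 882 and 779. The states are thus not matched between libraries, and neither these levels nor the weighted ratio compare like with like. By Pcna the shares of cells lay closer, at 47.3% in control and 43.2% in Gli2EKO. In dividing cells 27 of the 50 members were lower in Gli2EKO and in other cells 32. The share of all genes that were lower was not counted in either state, so these counts are read no further. H2bc4 was higher in Gli2EKO within both, with log2 ratios of 0.62 (0.54 to 0.70) and 0.55 (0.47 to 0.64). H4c4 stood at 0.01 in dividing and -0.27 in other cells, H2ac8 at 0.26 and 0.08, H2ac4 at 0.70 and -0.17, and H4c9 at 0.85 and 0.31.

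H2bc4 was higher in Gli2EKO in 11 of 12 keratinocyte classes and clusters (not in unnamed cluster 15), with 9 intervals above 0 and 0 below. The largest differences were in IRS-like (log2 0.98, 0.73 to 1.23) and SG-like cells (0.95, 0.66 to 1.23) and the smaller ones in companion-like (0.21) and HF1 ORS-like cells (0.27). The other members together were higher in 2 of the 12, with 1 interval above 0 (unnamed cluster 6, 0.42) and 6 below, of which the lowest were companion-like (-0.63) and IRS-like cells (-0.51). In these same classes the share of dividing cells was 51.2% in control and 40.4% in Gli2EKO for companion-like and 89.4% and 78.3% for IRS-like cells. The shares did not go the same way as the other members in every class. In HF2-like cells the members were lower (-0.14, -0.20 to -0.08) with shares of 61.3% and 65.1%, and in cluster 6 they were higher with shares of 55.3% and 52.7%.

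The higher H2bc4 level was also seen in some of the cells that K14Cre does not target. In fibroblasts it stood at 43.2 CPM in control and 75.8 in Gli2EKO (log2 0.81, 0.62 to 1.00), in melanocyte-like cells at 94.9 and 133 (0.49, 0.10 to 0.88) and in immune-like cells at 71.9 and 103 (0.52, -0.05 to 1.08). Classes of few cells went either way: smooth muscle or pericyte-like cells had 25 and 3 H2bc4 UMIs (-2.23, -4.60 to -0.52), Schwann-like cells 85 and 2 (-1.75, -4.81 to 0.15) and endothelial-like cells 18 and 15 (1.43, 0.34 to 2.50). H4c9 stood at 5.89 and 11.8 CPM in fibroblasts (1.00, 0.50 to 1.51) and H2ac4 at 6.49 and 8.66 (0.42, -0.12 to 0.95). The 58 other members summed to 273 and 287 CPM in fibroblasts (0.07, -0.02 to 0.15). Of the 50, 21 were lower in Gli2EKO fibroblasts, and the share over all genes was not counted, so this count is read no further. Genes known to be induced by tissue dissociation were higher with H2bc4 in some cells and not in others. The 14 genes of that list, all detected, summed to 5615 CPM in control and 6568 in Gli2EKO keratinocytes and to 3697 and 4242 in fibroblasts, with Hspa1a at 689 and 1069 CPM in keratinocytes. In melanocyte-like cells, where H2bc4 was also higher, the list went the other way, from 4916 to 3697 CPM. The part of handling in the H2bc4 difference was not tested, and with 1 library a genotype, genotype and library cannot be told apart.

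**Figure D5:**
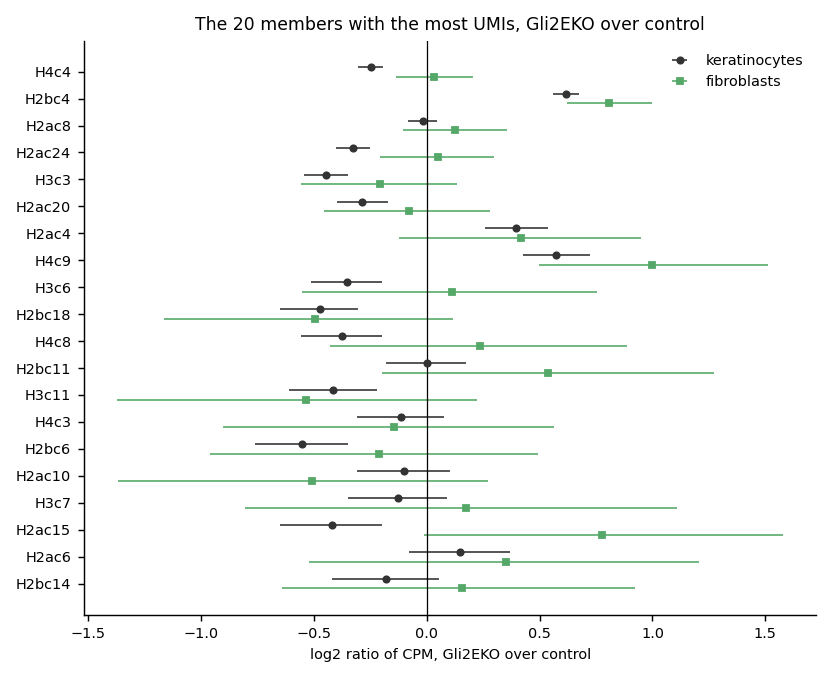
Log2 ratio of CPM, Gli2EKO over control, for the 20 members with the most UMIs, in keratinocytes (black circles) and fibroblasts (green squares), with 95% counting intervals. H2bc4 (0.62 and 0.81) and H4c9 (0.57 and 1.00) lie above 0 in both kinds of cell, and H4c4, H2ac24 and H3c3 lie below 0 in keratinocytes.

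Genes that work with the members were followed from lists. Of the 7 linker histone genes, which bind the DNA between nucleosomes, 5 were at least 2-fold higher in dividing keratinocytes in each library. H1f1 (log2 4.74 in control), H1f5 (4.21) and H1f3 (2.59) were in the range of the members, and H1f4 stood at 1.53. H1f0, the linker histone of resting cells, stood at 0.47 and H1f2 at 0.37. Of the 10 replacement histone genes found, which are made outside S phase too, 4 in control and 5 in Gli2EKO passed the same mark. Cenpa, the H3 of centromeres, stood at 4.07, H2ax, which marks DNA breaks, at 3.18 and H2az1 at 1.90, while H3f3a stood at 0.07 and H2aj at -0.43. Both H3.3 genes gave far more UMIs than any member, H3f3b at 2221 CPM and H3f3a at 1294 CPM in control. Because the libraries were primed on poly(A), these levels do not rank the genes by their total mRNA. Of the 14 genes of histone mRNA processing 2 passed in each library, and Slbp stood at 1.62 in control and 1.43 in Gli2EKO. Of the 15 histone chaperone genes 5 passed, among them Asf1b at 3.58 and Chaf1b at 1.67, which hand new H3 and H4 to the replication fork. Of the S phase list 35 of 43 genes passed in control and 33 in Gli2EKO, and of the G2/M list 53 of 54 in both. The G2/M list holds Mki67 and Top2a, which define the split.

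The genes whose log2 level over the 35 profiles was most like that of the summed members, among 13525 genes ranked, were H2ax (Pearson r 0.92), Cdca3 (0.90), H1f4 (0.89), Pbk (0.89), H1f3 (0.88), Hmgb2 (0.88), Spc24 (0.88), Ube2c (0.87), Cdc20 (0.86) and Dlgap5 (0.86), members aside. Pcna stood at 0.82, Top2a at 0.78, Mki67 at 0.77 and Slbp at 0.65. Set against the sum without H2bc4, H1f5 reached 0.95, H1f1 0.91, Top2a 0.88, Pcna 0.88 and Mki67 0.86. The profiles share cells' depth and library, and r is given with no test.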

How the data were processed

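The deposited files hold raw UMI counts per gene and cell barcode for 1 control and 1 Gli2EKO library of P2 back skin, made by the authors with the 10x 3′ kit and Cell Ranger 9.0.1 on GRCm39 with GENCODE M30 genes, each cell assigned to a library by its multiplexing barcode. Cells with more than 1000 and fewer than 8000 genes and under 15% mitochondrial UMIs were kept, as in the study's methods, and the 8% of each library with the highest Scrublet score (scanpy 1.11.5) were removed as likely doublets, which differs from the study's caller. Cells were clustered in Seurat 5.3.0 (R 4.3.3; 2000 variable genes, 20 components, resolution 0.5) with the members, other histones and cell cycle lists left out of the variable genes, and clusters were named from marker genes. Counts were summed per class and library and divided by all UMIs of those cells (CPM). Log2 ratios taken gene by gene used a prior of 0.5 UMI, and those of sums and of H2bc4 by class used none. Members with fewer than 50 UMIs in keratinocytes were not ranked. With 1 library per genotype no test was possible, and the intervals (exact Poisson, Clopper-Pearson, or binomial for a ratio of 2 counts) cover counting error only. Summaries were computed in Python 3.11.15 with numpy 2.4.6, scipy 1.17.1 and pandas 2.3.3 and drawn with matplotlib 3.10.9, and the scripts were tested on simulated data. The genes named are the members, the leading 20 by UMIs, the 5 highest and 5 lowest of each ratio, and the 10 genes most like their sum. In the related lists H1f1, H1f3, H2ax, Cenpa, Slbp, Asf1b and Chaf1b were named after their values were seen. The members and lists were chosen with earlier results of these data known. The rule works on the deposited symbols: the genes H2aw, H2bu1-ps, H2bu2 and H4f16 carry newer symbols of the clustered form in later annotation and are not members. Positions and 3′ ends were read from GENCODE M39 models, later than those counted on.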

Additional observations from a re-analysis of the deposited data

Results flagged for a closer look

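The summed members were lower in Gli2EKO than in control keratinocytes (log2 -0.077, -0.10 to -0.05) and higher in Gli2EKO than in control fibroblasts (0.20, 0.12 to 0.27). With 1 library per genotype the difference between the cell types was not tested.

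H2bc4 was lower in dividing than in other keratinocytes, with log2 ratios of -0.28 in control and -0.22 in Gli2EKO, and higher in dividing than in other fibroblasts, with 0.37 in control and 0.98 in Gli2EKO. This difference was not tested either, and among keratinocyte classes of control the ratio ran from -0.72 in HF1 ORS-like to 0.58 in HF2-like cells. In Gli2EKO the same classes had 0.20 (-0.06 to 0.47) and -0.12 (-0.37 to 0.13), with intervals that span 0 and overlap, so no order is shown there.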

How the results depend on the processing

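Over 11 results, 127 alternatives were run: 91 stayed within counting error or within 1.5 times the count, 34 moved further and 2 changed sign. No paired analysis was possible because each genotype is 1 library, and for the same reason no replicate could be left out. The genotype ratio of the sum in keratinocytes (log2 -0.08) was 0.0051 as a mean over cells, 0.12 with dividing shares weighted to control, -0.0091 with clusters weighted to control, -0.041 without H4c4 and -0.21 without H2bc4, an alternative chosen after seeing the data. The dividing ratio (2.38 in control, 2.25 in Gli2EKO) was 3.29 and 3.53 without H2bc4, 2.25 and 2.09 without H4c4, 2.18 and 2.20 as a mean over cells, 0.85 and 0.75 with Pcna in place of Mki67 or Top2a, and 2.31 in control with no doublet removal. The members at least 2-fold higher were then 25 of 50 in control and 28 in Gli2EKO with Pcna. The fibroblast ratio (-1.38 and -1.10) was -1.07 and -0.85 with no doublet removal, -1.19 in control with the cycle genes and members left in the clustering, -1.44 in control without H4c4, and in Gli2EKO -0.86 with the automatic Scrublet threshold and -1.29 as a mean over cells. The suprabasal ratio (-1.94 and -1.81) was -2.80 and -2.90 without H2bc4, -2.21 and -1.89 with those genes left in, -1.80 and -1.64 as a mean over cells, -1.80 and -1.68 without H4c4, and in Gli2EKO -1.69 with no doublet removal and -1.67 with the automatic threshold. The members at least 1.5-fold higher in Gli2EKO were 2 rather than 1 with the automatic threshold, a mitochondrial limit of 10%, a minimum of 20 UMIs, or no minimum. Where the construction of an alternative does not show it, the cause was not tested. Members under 50 UMIs were too shallow to compare.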
